A study of Homo sapiens with 8 samples.

Results

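RAB GTPases were described in human hepatic stellate cells, the matrix-producing pericytes of the liver, as rows of a translation efficiency table whose gene name is RAB followed by a number and at most 2 further letters. This rule gave 47 of 12109 rows, 46 of them annotated as protein-coding and 1, RAB1C, as a processed pseudogene. RAB3IP and RAB5IF fit the letters but name proteins that interact with RABs, so both were left out. The table compares cells given a silencing RNA against LARP6 (labelled genotype LARP6 kd, treatment dsiLARP6) with cells given a control silencing RNA (labelled genotype WT, treatment dsi-control). All cells were grown in DMEM with serum and are labelled as a cell line named HSCs. For each condition there were 2 RNA-seq and 2 ribosome profiling libraries, 8 in all, and ribosome profiling reads the RNA stretches that ribosomes shield from nuclease. Translation efficiency is footprints relative to RNA of the same row, on a log2 scale on which 0 is about the typical row.

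RAB GTPases are small membrane switches. Bound to GTP they recruit motors, tethers and other effectors to a membrane, and after GTP hydrolysis they are extracted to the cytosol by a GDP dissociation inhibitor. Exchange factors (GEFs) load GTP, GTPase-activating proteins (GAPs) speed its hydrolysis, and a lipid added to cysteines at the end of the protein anchors it. Each RAB marks a set of compartments, and in matrix-producing cells the family carries procollagen out through the Golgi, recycles integrins and sends receptors and matrix fragments to lysosomes.

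The deposited values are the authors' own comparison and hold no value per library. No replicate spread, standard error or depth can therefore stand beside a value, and a change in footprints cannot be separated from a change in RNA. The labels do not say that the 2 libraries of a group were separate cultures, and the authors' p-values may then cover technical spread alone. LARP6 itself had a log2 change of efficiency of 0.07 (adjusted p = 0.98) per the authors' deposited table, which says nothing of how much LARP6 RNA was left. Of 10 stellate cell markers listed, 7 had a row, among them COL1A1, ACTA2 and PDGFRB, as did 2 of 4 hepatocyte, 1 of 3 endothelial, 2 of 3 leukocyte and Kupffer cell and 2 of 3 biliary markers. A row shows only that reads were counted, so the share of other cells was not tested.

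The RAB family had a median change of translation efficiency close to that of all rows, with 1 member lower and 1 higher after LARP6 knockdown. RAB8A, which takes vesicles from the Golgi and recycling endosomes to the plasma membrane and the cilium, fell 2.16-fold, and RAB3B, a RAB of regulated secretory vesicles, rose 1.76-fold per the authors' deposited table. These 2 calls among 47 members (4.26%) stand beside 2.2% of all rows called per the authors' deposited table at an adjusted p of 0.05. By direction, 1.07% of all rows were called higher and 1.12% lower per the authors' deposited table. An unadjusted p under 0.05 was reached by 4 members (8.51%), namely RAB3B, RAB8A, RAB21 and RAB7A, against 10.3% of all rows according to the authors' deposited table, so this share lies near the background. The median log2 change of the members was 0.04, with 25 above 0 and 22 below, and that of all rows was 0.02 per the authors' deposited table. The log2 change lay within 0.3 of 0 for 29 members (61.7%) against 46.7% of all rows, and changes of at least 1.5-fold were seen in 8 members (17%) against 27.3% of all rows per the authors' deposited table. Whether the spread of the members differs from that of other rows was not tested. The whole family is shown in the plot of ordered log2 changes.

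**Figure D1:**
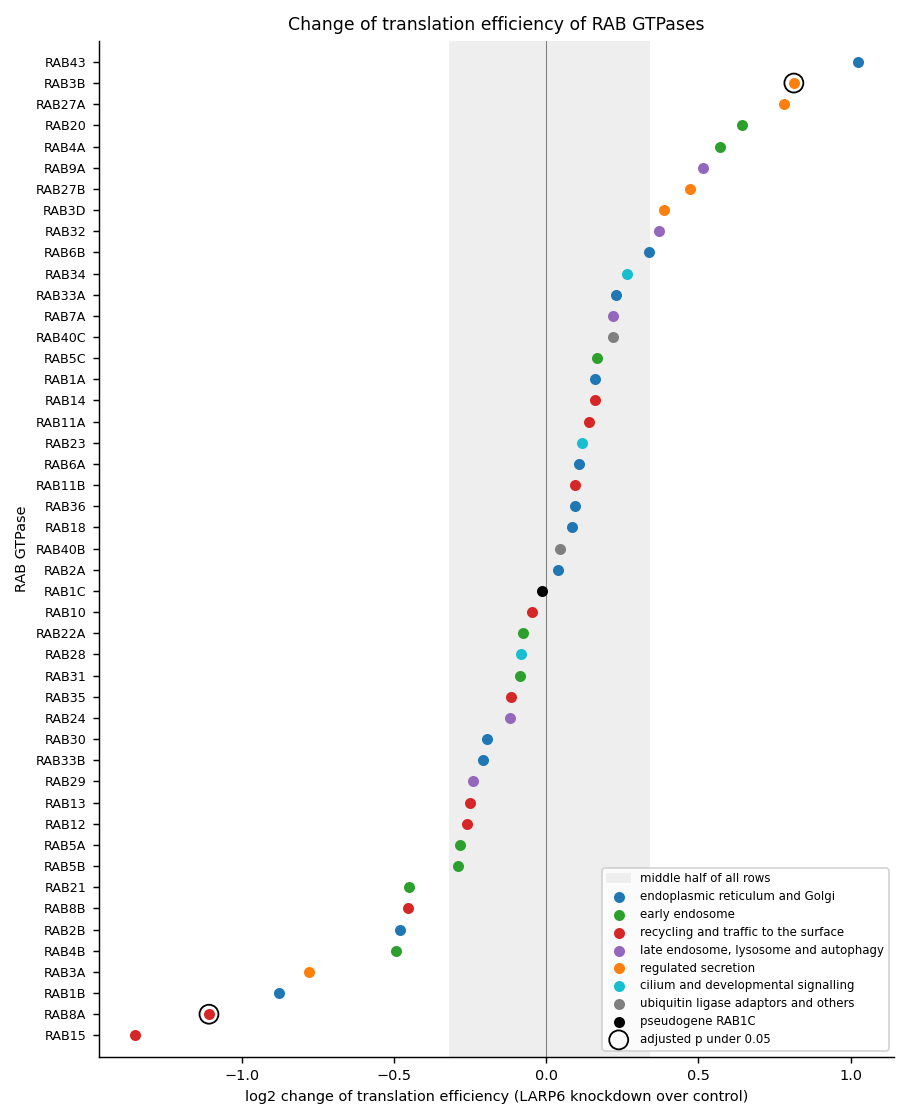
Log2 change of translation efficiency (x axis, knockdown over control) of the 47 RAB GTPases, ordered by value and coloured by the compartment or process each is known for; the grey band is the interquartile range of all 12109 rows, and rings mark an adjusted p under 0.05. Only RAB8A (−1.11) and RAB3B (0.81) are ringed, although RAB15 (−1.35) lies lower and RAB43 (1.02) higher.

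RAB8A (chromosome 19, 16111629 to 16134234, GRCh38, 8 exons) had a log2 efficiency of 0.40 in control cells, above 65.1% of all rows, and of −0.71 in knockdown cells, above 25.1%. Its log2 change of −1.11 per the authors' deposited table (p = 0.00022, adjusted p = 0.013) was lower than that of all but 4.30% of rows. Its nearest relative RAB8B, which shares 76.7% of aligned coding bases, had a log2 change of −0.45 (adjusted p = 0.79) per the authors' deposited table and log2 efficiencies of 0.70 and 0.24 in control and knockdown. Both genes thus had values on the same side of 0, and whether they differ in their change was not tested.

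RAB3B (chromosome 1, 51907956 to 51990764, 5 exons) started low, with a control log2 efficiency of −1.04 that exceeded 16.6% of all rows. In knockdown cells it was −0.23, above 41.1% of rows, a log2 change of 0.81 according to the authors' deposited table (p = 4.0e-05, adjusted p = 0.0032). The matched transcript is 12844 bases long, of which 660 are coding and 11971 form the 3′ UTR, the second longest 3′ UTR of the family after that of RAB21 (14612 bases). Its relatives RAB3A and RAB3D, also RABs of secretory vesicles, had log2 changes of −0.78 (adjusted p = 0.91) and 0.39 (adjusted p = 0.97) per the authors' deposited table. Neither value was called, so the RAB3 genes had values on both sides of 0 with a call for RAB3B alone.

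The ends of the coding sequences hold the cysteine codons where the membrane anchor attaches. How alike these relatives are over this stretch alone was not measured. Below are the last 60 coding bases of the matched GENCODE transcripts, stop codon included, 5′ to 3′ on the coding strand, with cysteine codons (TGT or TGC) in capitals. RAB8A lies at chr19:16132245-16132304 (plus strand), RAB8B at chr15:63263560-63263619 (plus), RAB3A at chr19:18197470-18197529 (minus), RAB3B at chr1:51919927-51919986 (minus) and RAB3D at chr19:11325398-11325457 (minus), all on GRCh38.
RAB8A: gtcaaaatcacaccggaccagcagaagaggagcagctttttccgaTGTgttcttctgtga
RAB8B: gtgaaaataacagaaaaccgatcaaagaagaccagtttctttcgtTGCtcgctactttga
RAB3A: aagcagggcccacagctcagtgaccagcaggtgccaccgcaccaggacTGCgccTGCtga
RAB3B: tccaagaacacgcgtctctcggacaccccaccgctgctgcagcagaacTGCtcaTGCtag
RAB3D: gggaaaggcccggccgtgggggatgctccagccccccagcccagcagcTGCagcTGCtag
Both RAB8 genes carry 1 cysteine codon here and the RAB3 genes 2, separated by another codon. Among the 46 coding members, 38 had at least 2 cysteine codons in the last 5 codons before the stop, 8 had 1 and 0 had none. In 15 members the last codons read cysteine, any, cysteine, and in 13 the last 2 codons were both cysteine.

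RABs of recycling and of traffic to the cell surface had more values below 0 than above, with 7 of 10 measured members below and a median log2 change of −0.18 per the authors' deposited table. RAB8A was the 1 member that fell, and 0 rose. Of all rows, 1.12% were called lower, 2.2% were called in either direction and 50.8% lay above 0, per the authors' deposited table. Whether these 10 members differ in direction from other rows was not tested, and 1 call among 10 says little about the group. RAB15, a RAB of recycling endosomes, had the lowest log2 change of the family, −1.35, but with an adjusted p of 0.83 per the authors' deposited table, from a control log2 efficiency of −1.05. RAB12, RAB13, RAB35 and RAB10 had log2 changes of −0.26, −0.25, −0.11 and −0.05 per the authors' deposited table. RAB11A and RAB11B, the main RABs of slow recycling, had 0.14 and 0.09, and RAB14 had 0.16, according to the authors' deposited table. These adjusted p-values lay between 0.91 and 0.98, so RAB11, RAB14 and the 4 before them passed no threshold. The control log2 efficiency of the group had a median of 0.47, with RAB12 at 0.95 the highest.

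RABs of early endosomes gave 0 calls, with 3 of 9 measured members above 0 and a median log2 change of −0.09 per the authors' deposited table. Since 2.2% of all rows were called, 0 among 9 lies near the background. RAB21, which takes part in integrin internalisation (chromosome 12, 71754874 to 71800285), had the second highest control log2 efficiency of the coding members, 1.54, and 1.09 in the knockdown. Its log2 change of −0.45 reached an unadjusted p of 0.036 but an adjusted p of 0.42 per the authors' deposited table. RAB5A, RAB5B and RAB5C, the organisers of early endosome fusion, had log2 changes of −0.28, −0.29 and 0.17 per the authors' deposited table, with adjusted p-values of 0.94, 0.80 and 0.90. RAB4A and RAB4B, RABs of fast recycling, lay apart, at 0.57 (adjusted p = 0.77) and −0.49 (adjusted p = 0.85) per the authors' deposited table. RAB20, found on phagosomes and endosomes, had 0.64 (adjusted p = 0.94) according to the authors' deposited table. RAB22A and RAB31, close relatives of RAB5 on endosomes, had −0.08 and −0.09 per the authors' deposited table.

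RABs of the endoplasmic reticulum and Golgi, the route of procollagen, also gave 0 calls. With 2.2% of all rows called, 0 among 12 members lies near the background and says little about this route. Of 12 measured members 8 lay above 0, with a median log2 change of 0.09 per the authors' deposited table. The control log2 efficiency of this group was spread most widely, from −2.70 for RAB1B to 1.41 for RAB33A, around a median of −0.23. RAB1A, which with RAB1B drives transport between the endoplasmic reticulum and the Golgi, had a log2 change of 0.16 (adjusted p = 0.92) per the authors' deposited table, and RAB1B had −0.88 (adjusted p = 0.74). RAB2A and RAB2B, also on this route, had 0.04 and −0.48, and RAB6A and RAB6B, RABs of Golgi traffic, had 0.11 and 0.34 per the authors' deposited table. RAB43 had the highest log2 change of the family, 1.02, with an adjusted p of 0.83 according to the authors' deposited table. RAB18, a RAB of lipid droplets and the endoplasmic reticulum, had 0.09, RAB36 had 0.09, RAB33A and RAB33B had 0.23 and −0.21, and RAB30 had −0.19 per the authors' deposited table.

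RABs of late endosomes, lysosomes and autophagy had a median log2 change of 0.22 over 5 measured members, 3 of them above 0, with 0 calls per the authors' deposited table. A count of 0 among 5 lies near the 2.2% of all rows called. RAB7A, the RAB of fusion with lysosomes (chromosome 3, 128726122 to 128814796), went from a log2 efficiency of 0.74 to 0.96. Its log2 change of 0.22 had an unadjusted p of 0.047 and an adjusted p of 0.47 per the authors' deposited table, a smaller change than that of 25 other members of either sign. RAB9A, which returns receptors from late endosomes to the Golgi, had 0.52 (adjusted p = 0.77) and RAB32, a RAB of lysosome-related organelles, 0.37 (adjusted p = 0.62) per the authors' deposited table. RAB24 and RAB29 had −0.12 and −0.24 according to the authors' deposited table.

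RABs of regulated secretion had the highest median log2 change of the role groups, 0.47, over 5 measured members per the authors' deposited table. Their values ranged from −0.78 to 0.81 per the authors' deposited table, and whether the role groups differ was not tested. RAB3B was the 1 that rose, and 0 fell. Of all rows, 1.07% were called higher and 2.2% in either direction per the authors' deposited table, and 1 call among 5 says little about the group. RAB27A and RAB27B, which dock secretory granules and exosome-bearing endosomes at the plasma membrane, had 0.78 (adjusted p = 0.84) and 0.47 (adjusted p = 0.62) per the authors' deposited table, so 4 of the 5 values lay above 0 and RAB3A lay below. Among RABs of cilia and developmental signalling, RAB34, RAB23 and RAB28 had 0.26, 0.12 and −0.08 per the authors' deposited table. RAB40B and RAB40C, which act as adaptors of ubiquitin ligases, had 0.04 and 0.22 per the authors' deposited table. Listed RABs known for other cell types include RAB3A of neurons and endocrine cells and RAB27B of secretory cells, which both had a row. RAB25 of epithelia, RAB38 of pigment cells and RAB44 of blood cells are among 18 listed RAB names without a row.

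In control cells the efficiencies of the RAB rows spread widely, on both sides of 0. The control log2 efficiency, derived as the knockdown value minus the change of the second of the authors' methods, had a median of 0.19 over the 47 members against 0.0025 over all rows, and 30 members (63.8%) lay above 0 and 17 below, against 50.1% of all rows above. The 47 include the pseudogene RAB1C, and whether the family differs from all rows was not tested. In the knockdown the medians were 0.24 and 0.01 according to the authors' deposited table. RAB4B (1.91), RAB1C (1.56) and RAB21 (1.54) were highest in control cells, and RAB1B (−2.70), RAB6A (−1.91) and RAB43 (−1.72) were lowest. In knockdown cells RAB1B (−3.58), RAB15 (−2.40) and RAB6A (−1.81) were lowest per the authors' deposited table. Without a value per library it was not tested which neighbours in this order differ.

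**Figure D2:**
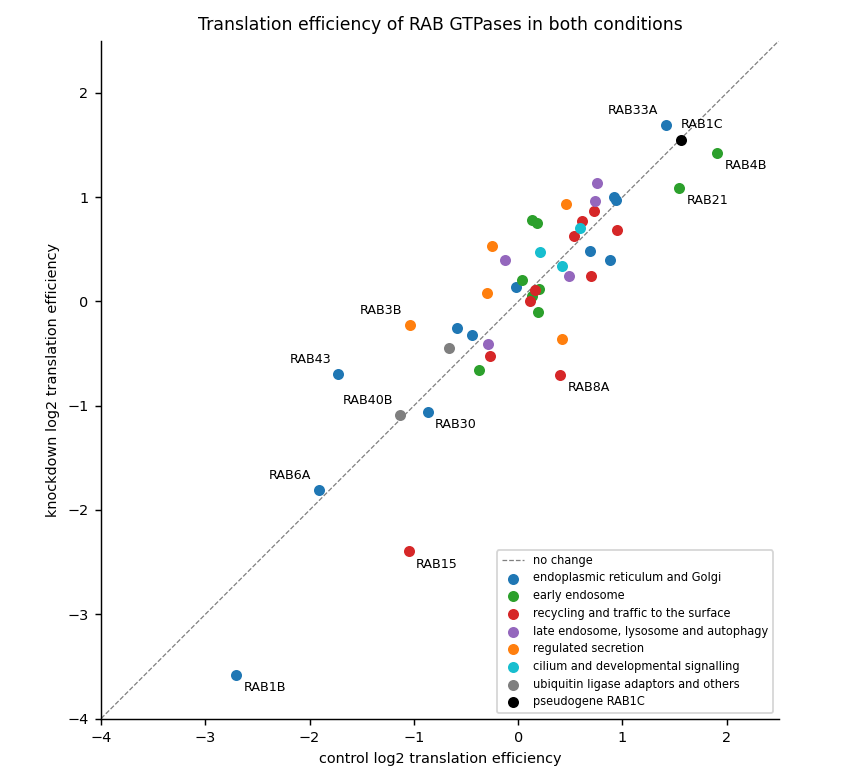
Log2 translation efficiency of the 47 RAB GTPases in control cells (x axis) and knockdown cells (y axis), 1 point a gene, coloured by role; the dashed line marks equal values. RAB8A lies below the line, at 0.40 and −0.71, and RAB3B above it, at −1.04 and −0.23, while RAB1B, the lowest point, stands apart at −2.70 and −3.58.

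Relatives that share a number had close levels in some pairs and levels far apart in others. There were 11 such numbers with 25 members. The 15 pairs of coding relatives were 63.3% to 78.8% identical over their aligned coding bases, and their control log2 efficiencies differed by a median of 0.71. For scale, the interquartile range of all rows ran from −0.71 to 0.68. Whether relatives differ more or less than unrelated rows was not tested. The widest gaps were between RAB1A and RAB1B, 6.42-fold, between RAB4A and RAB4B, 3.31-fold, and between RAB3A and RAB3B, 2.74-fold. RAB1B and RAB4B have coding sequence that other genes also hold, as described below, and its part in these gaps was not tested. The closest were RAB2A and RAB2B at 1.04-fold, RAB5B and RAB5C at 1.11-fold and RAB11A and RAB11B at 1.14-fold. Log2 changes after knockdown had the same sign in 7 pairs and opposite signs in 8, with a median difference of 0.45 per the authors' deposited table. RAB8A with RAB8B, RAB27A with RAB27B and RAB11A with RAB11B were among the pairs of 1 sign, and RAB3A with RAB3B and RAB4A with RAB4B among those of opposite sign. Most of these values were not called, and differences within pairs were not tested.

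**Figure D3:**
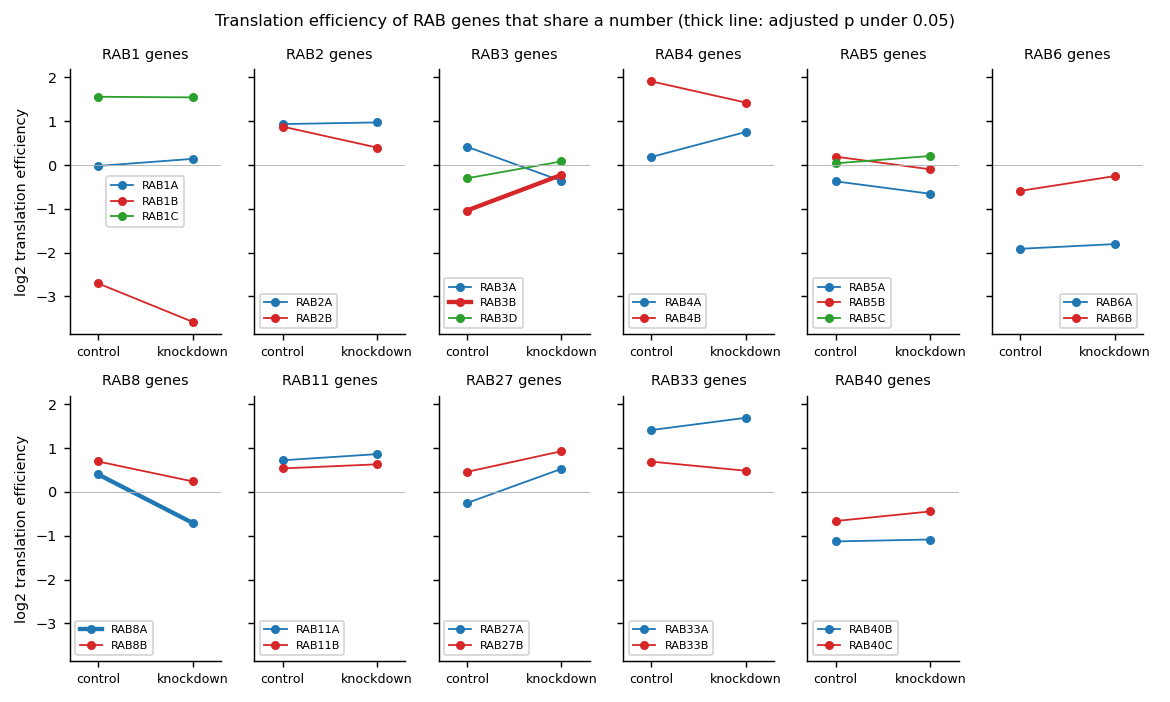
Log2 translation efficiency (y axis) in control and knockdown cells of the RAB genes that share a number, 1 panel a number and 1 line a gene, with thick lines for an adjusted p under 0.05. RAB8A drops from 0.40 to −0.71 beside RAB8B, RAB3B climbs from −1.04 to −0.23, and RAB1B and RAB1C lie 4.26 apart in control cells.

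Some members have coding sequence that other genes also hold. Each coding sequence was cut into windows of 28 bases, about the length of a footprint, and each window was looked up in all GENCODE transcripts. Of the 46 coding members, 24 shared 0 windows with another gene, 11 shared under 10% and 11 shared at least 10%. RAB8A and RAB3B shared 0.17% and 0.16%, that is 1 window each, so nearly all of their coding windows are their own. By contrast RAB1B shared 40.6% of its windows with RAB1C, its intronless copy on chromosome 9, and RAB6A shared 36.7%, with RAB6C and RAB6D. RAB43 shared 86.1% with the pseudogene RAB43P1 and 66.8% with the overlapping readthrough gene ISY1-RAB43, which has a row of its own. RAB5A shared 22.1% with a processed pseudogene. RAB13, RAB24 and RAB4B shared 100%, each with an annotated transcript of another gene that overlaps it, and RAB5C shared 76.8%, mostly in the same way. RAB13 also shared 73.8% with a processed pseudogene that does not overlap it. For RAB4B the overlapping genes were RAB4B-EGLN2 (100%) and MIA-RAB4B (97.4%), and both have rows of their own. The 11 members with at least 10% had a median control log2 efficiency of −0.29, ranging from −2.70 to 1.91, and the 35 others had a median of 0.40, ranging from −1.05 to 1.54. The 3 lowest control values, those of RAB1B, RAB6A and RAB43, were all in the first group. The handling of reads that fit several places is not stated in the sources used here, and the part of shared sequence in these levels was not tested.

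**Figure D4:**
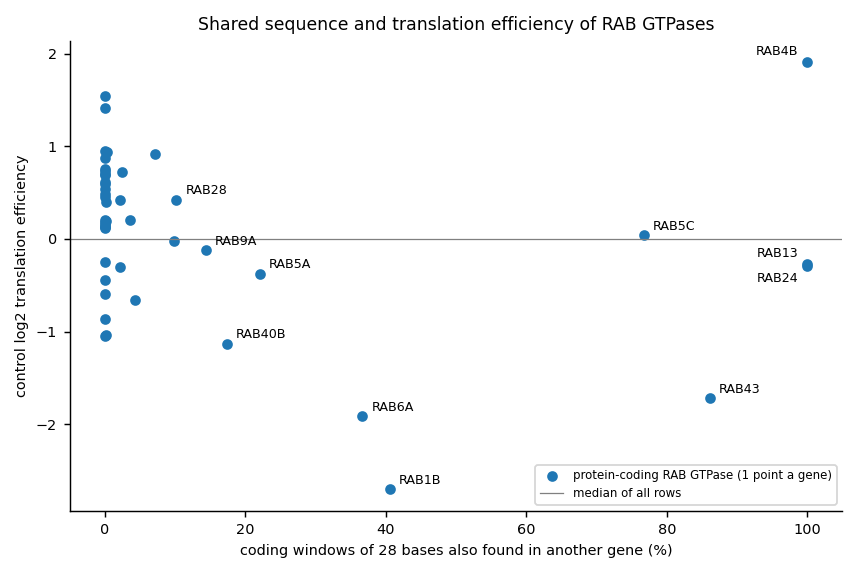
Share of coding windows of 28 bases also found in a transcript of another gene (x axis, percent) and control log2 translation efficiency (y axis) of the 46 protein-coding RAB GTPases, 1 point a gene, with the median of all rows as a line. RAB1B (40.6%), RAB6A (36.7%) and RAB43 (86.1%) hold the 3 lowest efficiencies, whereas RAB4B (100%) holds the highest.

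RAB1B and RAB1C had levels far apart. RAB1B (chromosome 11, 66268533 to 66277492, 6 exons) had a control log2 efficiency of −2.70, higher than 2.20% of all rows, and RAB1C (chromosome 9, 37636688 to 37637293, 1 exon), a processed pseudogene, had 1.56, higher than 92.5%. The levels were 19.2-fold apart although the sequences are 96.9% identical, with 19 aligned positions that differ. The matched RAB1B transcript is 2007 bases long, of which 606 are coding, and that of RAB1C is 606 bases long. RAB1B shared 40.6% of its windows with RAB1C, so reads of either may be counted in the other, and the part of this in the gap was not tested. In a pseudogene, footprints relative to RNA need not be translation. Neither changed past the threshold, with log2 changes of −0.88 (adjusted p = 0.74) and −0.01 (adjusted p = 0.996) per the authors' deposited table. The following stretch of 90 bases is the one with the most differences, 5 of them, shown in capitals; it begins at base 172 of the RAB1B coding sequence. It lies at chr11:66272241-66272442 (plus strand, spanning an intron) for RAB1B and at chr9:37637033-37637122 (minus strand) for RAB1C, on GRCh38.
RAB1B: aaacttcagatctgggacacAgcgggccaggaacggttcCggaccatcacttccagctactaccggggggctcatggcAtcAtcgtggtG
RAB1C: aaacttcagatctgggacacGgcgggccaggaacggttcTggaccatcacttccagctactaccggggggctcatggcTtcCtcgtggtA
The longest stretch without a difference is 101 bases, at chr11:66275850-66276058 (plus strand, spanning an intron) in RAB1B, and reads the same in both genes.
RAB1B and RAB1C: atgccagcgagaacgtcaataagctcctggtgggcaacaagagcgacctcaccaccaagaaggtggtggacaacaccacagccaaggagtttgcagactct

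The RAB messages share a short coding part, and their 3′ UTR was long at the median but not in every member. Its length ran from 8 bases in RAB30 to 14612 in RAB21. In the matched transcripts the median coding length was 648 bases, against 1389 over protein-coding rows, and the median 3′ UTR 2163 bases, against 1036. The 5′ UTR had a median of 229.5 bases and a GC content of 71.6%, against 185 bases and 67.6%, and 19 members (41.3%) had an ATG in it, against 48.9% of protein-coding rows. Over the 46 coding members, 3′ UTR length had a Spearman rho of 0.00 with the control log2 efficiency and 0.08 with the log2 change, and coding GC content had −0.28 and 0.02. The highest rho with the log2 change were 0.27 for coding length and 0.21 for 5′ UTR length, against −0.02 and −0.02 over protein-coding rows. Over 10560 protein-coding rows, coding length had a rho of −0.39 with the control log2 efficiency, and over the members 0.19, in a far narrower range of lengths. These are descriptions over genes, which share libraries and may share reads, and the sources used here do not say in which regions reads were counted.

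Among the proteins that act on RABs, 1 of 142 measured genes rose and 0 fell per the authors' deposited table, a share below the 2.2% of all rows. The riser was MLPH, melanophilin, which links RAB27A on granules to the motor MYO5A. Its log2 change was 1.85, that is 3.61-fold (p = 0.00011, adjusted p = 0.0074), according to the authors' deposited table, from a control log2 efficiency of 0.18. MLPH was the 1 called gene of 51 effectors and tethers, whose median log2 change was −0.09 per the authors' deposited table. An unadjusted p under 0.05 was reached by 5 of these 51 per the authors' deposited table. Beside this count and those of the lists below stands a share of 10.3% of all rows. Of 7 escort, dissociation inhibitor and prenylation genes 0 were called, with a median of 0.16 per the authors' deposited table. GDI2, a GDP dissociation inhibitor, had 0.31 (adjusted p = 0.79) and RABGGTB, the catalytic subunit of the enzyme that adds the lipid, −0.35 (adjusted p = 0.87) per the authors' deposited table. Of 47 exchange factors 0 were called and 3 had an unadjusted p under 0.05, with a median of 0.05 per the authors' deposited table. The RAB5 exchange factor RIN2 had 0.59 (adjusted p = 0.29), and MON1B, part of the RAB7 exchange factor, −0.85 (adjusted p = 0.41) according to the authors' deposited table. Of 37 GAPs 0 were called, 2 had an unadjusted p under 0.05, and the median was 0.11 per the authors' deposited table. TBC1D9B had 0.50 (adjusted p = 0.29) and TBC1D20, a GAP for RAB1, −0.61 (adjusted p = 0.46) per the authors' deposited table.

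RAS family GTPases, small GTPases of growth factor signalling, were measured in 17 rows together with RAN. Of these, 0 were called and 0 had an unadjusted p under 0.05, against 2.2% and 10.3% of all rows, per the authors' deposited table. Their median log2 change was −0.02 per the authors' deposited table. The 2 with the smallest p were RRAS, at −0.31 (adjusted p = 0.68), and DIRAS1, at −1.04 (adjusted p = 0.73), according to the authors' deposited table. The median control log2 efficiency was −0.15 for this list and 0.19 for the RABs, whereas the regulators and effectors, which are longer proteins, had −0.31. These lists are set side by side as counts and medians, and whether the RABs differ from them was not tested.

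**Figure D5:**
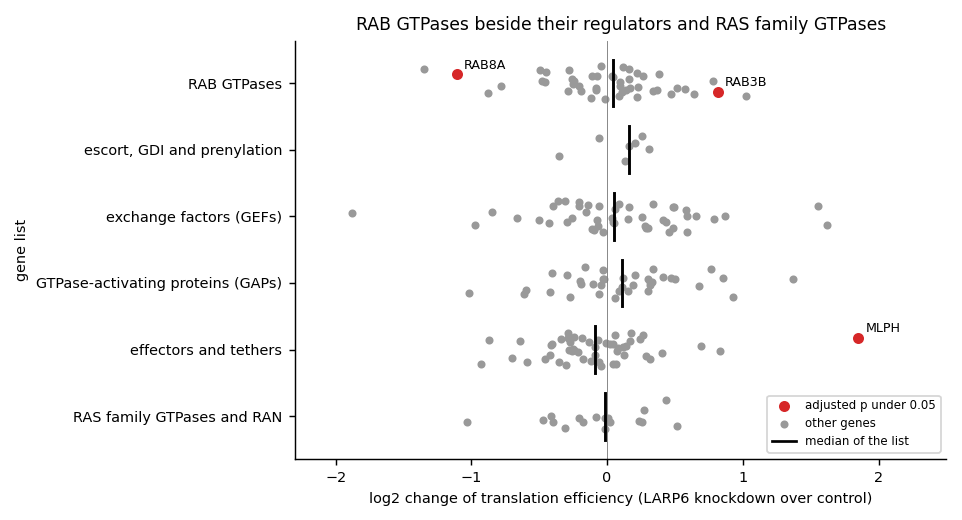
Log2 change of translation efficiency (x axis, knockdown over control) of each measured gene in the RAB family, 4 lists of RAB regulators and effectors and 1 list of RAS family GTPases; red points passed an adjusted p of 0.05 and black bars are list medians. All medians lie between −0.09 and 0.16, and RAB8A (−1.11) is the only red point below 0 among these lists.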

How the data were processed

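RNA-seq and ribosome profiling libraries of control and LARP6 knockdown cells entered the authors' comparison. Per the submitters' processing notes, cutadapt, Bowtie, hg38 and GRCh38 were used; the comparing program, versions and order are not stated in the sources used here. The authors deposited, per the file headers, 3 log2 changes of efficiency (first method, second method, final), the log2 efficiency of the knockdown, and p-values. Their final p-value is the larger of both methods' values, and the adjusted p-value equals its Benjamini-Hochberg adjustment over 12109 rows within 6.3e-15. No count test was possible, as the table has no value per library.

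The members and gene lists were chosen with earlier results of these data known. Transcripts were matched to GENCODE release 29 (GRCh38) by the last 6 digits of the identifier and, for all 47 members, the symbol. Coding sequences were aligned globally with Biopython 1.88, and the window search was tested on simulated data. Python 3.11.15, pandas 2.3.3 and scipy 1.17.1 were used. Named genes were members past an adjusted or unadjusted p of 0.05, the 6 highest and 6 lowest log2 changes, the 3 highest and 3 lowest control efficiencies and relatives sharing a number. From each other list, the called genes, or else the 2 with the smallest p, were named. The remaining members were named after their values were seen. Alternatives were other thresholds, each method alone, protein-coding rows, a minimum fold and members with little shared sequence. Lists of other small GTPases are not reported here.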

Additional observations from a re-analysis of the deposited data

How the results depend on the processing

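Of the RAB GTPases, 2 were called at an adjusted p of 0.05, and also at 0.1, by each method alone, when adjusted over protein-coding rows, with a minimum of 1.5-fold and among members sharing under 10% of windows. Over all 12109 rows the calls numbered 266 at 0.05 and 340 at 0.1. They were 457 by the first method, 342 by the second and 209 with the minimum fold. Adjusting over protein-coding rows gave 249. The steady count of 2 members thus stands beside a background that moved. At an adjusted p of 0.01 the count was 1, against 184 over all rows, since RAB8A, at 0.013, no longer passed. At an unadjusted p of 0.05 it was 4, against 1246 over all rows. All 94 single-member values under the 2 methods kept their sign and their side of the threshold; the methods are nearly the same, so this is no independent check. The median log2 change of the members was 0.04 and lay between 0.04 and 0.09 under the alternatives run. The median control log2 efficiency of 0.19 became 0.40 when only members sharing under 10% of windows were taken, an alternative chosen after seeing the data; the cause was not tested. No paired analysis was possible because the deposited table gives no value per library, and leaving out replicates was not run for the same reason. Depth is unknown, so which members were too shallow to be called was not tested.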
